A study of Homo sapiens with 2 samples.

Results

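The snoRNA and scaRNA probes of an Agilent array were compared between LPS-stimulated and control THP-1 cells. The members were the 306 non-control probes, of 75149 on the array, whose name starts with RNA and holds the label snoRNA or scaRNA. THP-1 is a human monocytic leukaemia line, and LPS (lipopolysaccharide) is a component of the outer membrane of Gram-negative bacteria. There was 1 array for control cells (Con) and 1 array for cells given LPS for 48 h. The control is described as DMSO in the sample labels and as untreated in the methods. The dose of LPS is not given in the sources used here. Both arrays carried Cy3-labelled material amplified from total RNA primed with T7 oligo(dT) and T7 oligo(dN), and lay on the same slide in the same scan. Position on the slide and treatment cannot be told apart, and as each group had 1 array, the differences lack a replicate check and carry no p-value. The files used here give no gene name for any probe of the array, so that monocyte markers could not be looked up and the cell line was not checked against its markers.

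Small nucleolar RNAs (snoRNAs) are short non-coding RNAs, most of which are cut from introns of host genes. Box C/D snoRNAs guide the methylation of ribose in ribosomal RNA, and box H/ACA snoRNAs guide the conversion of uridine to pseudouridine. Small Cajal body-specific RNAs (scaRNAs) guide the same modifications in spliceosomal snRNAs within Cajal bodies. Many host genes code for ribosomal proteins or other factors of translation.

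Every member had the combined label snoRNA_scaRNA, so that snoRNAs and scaRNAs could not be separated. The label is followed by a number in a list and by a last number, as in RNA33743|snoRNA_scaRNA_339_71, where the list number is 339 and the last number is 71. The list numbers ran from 0 to 386 with 81 numbers not used by a probe, and the last number never rose along the list, from 548 at its start to 60 at its end. Of the members, 172 had a last number of 60 to 99 and 98 had a last number of 120 to 139. The deposited files do not say what the last number counts. As background, 357 genes with a SNORD symbol (box C/D) in the RefSeq gene table for GRCh38.p14 had a median length of 81 nt, 182 with a SNORA symbol (box H/ACA) had 134 nt, and 29 with a SCARNA symbol had 148 nt. The probes were not paired with these genes, and probes with neighbouring list numbers may share sequence, since no probe sequence was read here.

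Each array held 717 spots for the members, as 201 members with 2 spots and 105 with 3. The processed intensity is the scanner software's signal per spot after background subtraction, and the signal given here for a probe is the geometric mean over its spots without an outlier flag. Differences are in log2, LPS minus Con, after the 75th percentile of all probes was subtracted on each array, which lowered the LPS array by 0.13 relative to Con. No spot was saturated. The root mean square of the SDs between spots of a member was 0.12 (log2) on Con and 0.13 on LPS over the members detected on both arrays. Spots are technical repeats, so that precision between cultures is unknown with 1 array each.

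A probe counted as detected where a majority of its kept spots were marked well above background. Of the 306 members, 288 (94.1%) were detected on both arrays, 13 on Con alone, 0 on LPS alone and 5 on neither. Of all 75149 probes, 81.8% were detected on both arrays, 7480 on Con alone, 447 on LPS alone and 5757 on neither. The members' signal ran from 2.51 to 5149 on Con, with a median of 272, and from 2.21 to 6338 on LPS, with a median of 284. The 5 members detected on neither array had a signal of at most 16.9. Most members therefore gave a readable signal in both conditions.

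Most members differed little between the arrays, and those that moved by 2-fold or more were all lower with LPS. The median difference over all members was -0.07 (log2), with an interquartile range of -0.31 to 0.08, against -0.13 over all probes of the array. The sign of the members' median depends on the scaling: it was 0.05 when the arrays were scaled to the 50th percentile and 0.06 without scaling. Of the members, 255 lay between -0.5 and 0.5, 114 were above 0 and 192 below 0. At 2-fold, 36 of the 301 members detected on at least 1 array were lower and 0 were higher. Over all probes detected on at least 1 array, 16.5% were lower and 0.783% were higher by the same rule. With this scaling the share of lower members, 12%, was below the background. This order depends on the processing: with quantile normalization 24 members were lower, a share above the 5.2% over all probes. Less RNA of a kind per cell and fewer cells that hold it cannot be told apart in bulk RNA.

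Of the 36 lower members, 23 were detected on both arrays and 13 on Con alone. For these 13 the fold is a bound set by a rule. The Con signal was set against the higher of the probe's own LPS signal and the lowest signal of a detected probe on the LPS array (7.23). That signal is not a detection limit, because RNA33742 and RNA33763, described below, lay above it on LPS without being well above background. Where a fold is given as "at least" a value, it is therefore a bound under this rule only. Among probes detected on both arrays, 23 of 288 members were lower, or 7.99%, where 7.42% of all such probes were. Where the brighter array had a signal of at least 100, 12 of 244 members were lower, or 4.92%, and the share over all such probes was 3.59%. In these sets 0 members were called higher, where 0.82% of all probes detected on both arrays and 1.05% of those with a signal of at least 100 were.

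Nearly all lower calls fell on members with smaller last numbers. Members with a last number of 60 to 99 held 35 of the 36 lower calls, or 20.8% of the 168 detected ones, near the 16.5% over all probes. Members with a last number of 100 or more held 1 of 133, or 0.752%. The exception was RNA33478 (list number 74, last number 135), with a signal of 51.7 on Con and 23.9 on LPS and a difference of -1.25. The members with last numbers of 70 to 79 made up most of the calls, with 27 lower of 91 detected. Those with last numbers of 60 to 69 had 4 lower of 27, and those of 80 to 99 had 4 lower of 50. The median difference was -0.20 at 70 to 79, -0.18 at 80 to 99 and -0.04 at 60 to 69, and it was -0.01 over all members at 100 or more. Set against other probes of like signal, as described below, the median deviation was -0.16 at 70 to 79. It was -0.03 at 80 to 99 and -0.04 at 60 to 69. These groups were formed from the names, and as probes are not replicates of a condition the differences between groups were not tested.

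Within this range the lower calls were spread unevenly over the single last numbers. Over all probes detected on at least 1 array the share of lower calls was 16.5%. Of the 26 members with a last number of 71, of which 1 was detected on neither array, 15 were lower. The median difference over the 26 was -1.91. Of the 5 members with a last number of 69, 4 were lower, and of the 12 with 74, 5 were lower. By contrast, 0 of 10 members with a last number of 72 and 0 of 10 with 75 were lower, and their median differences were 0.02 and 0.12. Other last numbers lay between these: 1 of 8 members were lower at 70, 2 of 6 at 73, 2 of 7 at 76 and 2 of 7 at 77. The last numbers 71, 69, 74, 72 and 75 were picked for mention after their calls were seen. For 0 of the members with a last number of 71 was LPS higher by 2-fold or more. Of the 36 lower members, 29 lay in 8 runs of 2 to 9 members that follow each other in the list without a member that was not called, and 7 stood singly. List numbers not used by a probe were passed over in these runs. No matching count of runs is given for other probes, and neighbours in the list may share sequence.

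The longest run held 9 members, list numbers 335 to 343, all with a last number of 71. The first, RNA33739, had a signal of 54.6 on Con and 13.7 on LPS, a difference of -2.13. RNA33740 had 253 on Con and 40.3 on LPS, a difference of -2.78. RNA33741 had 112 on Con and 21.5 on LPS, a difference of -2.51. All 3 were detected on both arrays. RNA33742 had 58.7 on Con and 8.96 on LPS, where it was not well above background, so that it was at least 7.19-fold lower. RNA33743 had 236 on Con and 24.9 on LPS, a difference of -3.38 and the largest fall among members detected on both arrays. Its 3 spots had an SD of 0.05 on Con and 0.03 on LPS. RNA33744 followed with 176 on Con and 18.8 on LPS, a difference of -3.36.

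The last 3 members of the run were also detected on both arrays. RNA33745 had 341 on Con and 57.9 on LPS, a difference of -2.69. RNA33746 had 204 on Con and 33.6 on LPS, a difference of -2.74. RNA33747 had 258 on Con and 37.1 on LPS, a difference of -2.93. The spots of the arrays did not overlap for any of the 9 probes, which were called from these same spots. All LPS spots lay below all Con spots for 46.9% of all probes with at least 2 kept spots on each array, and for 41.9% of such members. With another background correction (normexp with an added offset of 50) RNA33743 was at -1.96, and RNA33739, at -0.71, was no longer called. The next members in the list, RNA33748 (477 on Con, 270 on LPS, difference -0.95) and RNA33749 (568 and 350, difference -0.83), were lower by less than 2-fold.

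Not every member with this last number moved. RNA33737, list number 333, had 515 on Con and 610 on LPS, a difference of 0.11, and it lies between the run at list numbers 330 to 332 and the longest run. RNA33752, list number 348, had 304 on Con and 306 on LPS, a difference of -0.12. RNA33750, list number 346, had 219 on Con and 74.4 on LPS, a difference of -1.69. Among the members with this last number the difference thus ranged from 0.11 to falls such as the 10.4-fold of RNA33743.

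The members with a last number of 69 included the deepest bound. RNA33764 had a signal of 99.3 on Con (SD between spots 0.11, 3 spots) and 4.82 on LPS, where it was not well above background. Under the rule for bounds it was at least 15.1-fold lower. RNA33765, its neighbour, was detected on both arrays with 134 on Con and 20.9 on LPS, a difference of -2.82. RNA33766 had 119 on Con and 52.3 on LPS, a difference of -1.33. RNA33763 had 25.5 on Con and 9.53 on LPS and was at least 2.94-fold lower. All 4 follow each other in the list, at numbers 359 to 362.

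Among the other deep bounds, RNA33736 (last number 71) had 56.3 on Con and 4.66 on LPS and was at least 8.53-fold lower. RNA33753 (last number 70) had 55.2 on Con and 5.84 on LPS and was at least 8.38-fold lower. With normexp and the offset of 50 the measured differences were -0.92 for RNA33736 and -0.97 for RNA33753, short of 2-fold, and -1.39 in place of -4.50 for RNA33764. A further fall among members with a last number of 74 was that of RNA33703, from 97.9 on Con to 23.3 on LPS, a difference of -2.21. In the same group RNA33706 had 4843 on Con and 6338 on LPS, a difference of 0.26. At list numbers 220, 221, 248 and 251 (last numbers 82 and 81), 4 members were lower by -1.36 to -1.54, with Con signals of 39.6 to 69.0. They were counted as a run because no probe used the list numbers between them.

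The 2-fold rule left few members close to it. Just inside were RNA33670, from 15.4 on Con to 7.06 on LPS with a bound of -1.23, RNA33478 at -1.25 and RNA33707, from 48.3 to 22.2 and a difference of -1.25. Just outside were RNA33748 and RNA33749, given above, and RNA33755, from 76.7 on Con to 50.6 on LPS and a difference of -0.73. Only RNA33748 lay within 0.05 of the threshold.

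The spots of the lower members lay across the slide. The 36 lower members had 94 spots without an outlier flag on either array, and at all 94 positions the LPS signal was below the Con signal, by -0.65 to -4.87 (log2). These spots fell in each of the 16 blocks into which the array was divided by rows and columns, and the median difference of a block lay between -1.16 and -3.13. As the members were called from the mean of these same spots, the direction of the spots follows from the choice. For each of the 36 probes all kept LPS spots were below all kept Con spots. Over the 301 members with at least 2 kept spots on each array, this held for 126, or 41.9%, and over all such probes for 46.9%. The opposite, all LPS spots above all Con spots, held for 51 members or 16.9%, and for 19.9% of all such probes. A separation of spots was thus common on these arrays at differences far below 2-fold.

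Differences between the arrays depended on the signal, so that each member was set beside the other probes of like signal, those within 0.25 (log2) of its mean signal over both arrays. The part of the signal in the low calls was not tested. All probes were divided by signal into 10 groups of equal size. In the 3 groups of lowest signal the median difference of non-members was -1.84, -1.39 and -0.62, and 3 of 7, 8 of 10 and 9 of 15 members were lower, where 29.8%, 61.1% and 33.1% of non-members were. In the next 3 groups 9 of 28, 6 of 42 and 1 of 34 members were lower, where 12.6%, 5.3% and 3.07% of non-members were, at non-member medians of -0.27, -0.11 and -0.03. In the remaining 4 groups, from a signal of 242 upwards, 0 of the 61, 55, 38 and 16 members were lower, and the non-member shares were 2.46%, 1.66%, 1.91% and 1.49%. The median difference of a member from its like-signal probes was -0.04, with 93 members (30.4%) below the interquartile range of those probes and 51 (16.7%) above it. For the last number 71 the median deviation was -1.13, and for members at 100 or more it was 0.0048.

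Several falls lay where probes of like signal hardly moved. Around RNA33743, 4432 other probes had a median difference of -0.19 and an interquartile range of -0.49 to 0.05, against -3.38 for the member. Around RNA33745, 4679 other probes had a median of -0.06 and a range of -0.27 to 0.13, against -2.69. Of the 36 lower members, 32 lay below the interquartile range of their like-signal probes. The other 4 were dim, and for RNA33670 the member's -1.26 was a smaller fall than the median of -2.03 among 2857 probes of like signal. As the 36 were called for falls of 2-fold or more, the place of the brighter ones below this range follows from the choice. At a mean log2 signal of 5.5, for example, the lower quartile of other probes was -0.80, less than a 2-fold fall.

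Rises were small. The largest was that of RNA33613 (last number 84), from 993 on Con to 1570 on LPS, a difference of 0.53, which is 1.44-fold. Its spots had an SD of 0.15 on Con and 0.10 on LPS with 2 spots each. RNA33601 (last number 88) had 241 on Con and 378 on LPS, a difference of 0.52. RNA33782 (last number 65) had 891 on Con and 1397 on LPS, a difference of 0.52, from 1 kept spot on each array.

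The other 7 of the 10 largest rises had differences of 0.36 to 0.48. They were RNA33469, RNA33663, RNA33605, RNA33415, RNA33769, RNA33596 and RNA33553, with last numbers from 67 to 270. In all 10 the LPS spots lay above the Con spots, 9 of them with at least 2 kept spots on each array, and all 10 lay above the interquartile range of their like-signal probes. As the 10 were chosen as the largest rises, both statements follow in large part from the choice. Such a separation of spots held for 19.9% of all probes with at least 2 kept spots on each array, and for 16.9% of such members. RNA33596, RNA33601, RNA33605 and RNA33613 lay near each other, at list numbers 192, 197, 201 and 209. Others lay far from these, such as RNA33415 at list number 8 and RNA33769 at 365. With arrays scaled by quantile normalization, RNA33469 and RNA33605 reached 1.08 and 1.06 and were called higher, together with RNA33456 at 1.19, which was chosen for mention after its value was seen.

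The 10 members with the highest mean signal differed by -0.35 to 0.32, and 7 of them were above 0. The highest of these differences was that of RNA33470 (last number 136), from 3854 on Con to 5265 on LPS, with an SD between its 2 Con spots of 0.32 (log2), as large as the difference itself. The lowest was that of RNA33410 (last number 353), from 3704 to 3185, with spot SDs of 0.19 and 0.04. RNA33473 (last number 135) had 5149 on Con and 5713 on LPS, a difference of 0.02, and RNA33437 (last number 142) had 4821 and 5485, a difference of 0.05. None of these members was near the 2-fold rule.

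The array also holds other small RNA labels with the same form of name. Of the members with last numbers of 60 to 79, 31 of 118 detected probes were lower, or 26.3%, beside 16.5% over all probes of the array. Among the tRNA probes, all of which have last numbers in that range, 9 of 96 were lower, or 9.38%, and among the probes with the label RNS in that range 18 of 125 were lower, or 14.4%. Among snRNA probes in that range 2 of 7 were lower, and over all last numbers 31 snRNA probes were lower, or 25.2% of those detected. The median deviation from probes of like signal was -0.14 for these members, -0.11 for tRNA, 0.03 for RNS and -0.08 for snRNA. The differences between these labels were not tested. In none of the 4 sets was a probe called higher. A further label, imsncRNA (intermediate-size non-coding RNA, 938 probes), was not divided by last number. There 99 probes were lower, or 11% of those detected, and 3 were higher, with a median deviation from probes of like signal of 0.03.

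The number of spots went with the last number by the design of the array. Members with 3 spots had last numbers of 60 to 75 or of 200 and more and held 27 of the 36 lower calls, and members with 2 spots, with last numbers from 75 to 421, held 9. Among members with last numbers of 70 to 79, 23 of 70 detected members with 3 spots were lower (32.9%) and 4 of 21 with 2 spots (19%). The part of the spot number in the result was not tested.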

How the data were processed

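The authors' scanner files of both arrays were used (Agilent Feature Extraction 11.5.1.1), with the deposited processed intensity of each of 180880 spots, already background-subtracted and detrended, without scaling between arrays. Control spots and spots with an outlier flag (1.71% on Con, 1.93% on LPS) were left out, log2 values were averaged per probe, and arrays were scaled to their 75th percentile. A difference of 2-fold or more was called, with a bound where only 1 array was well above background. With 1 array per group no test was run, and differences have no replicate error. The calculations were tested on simulated data. There all probes counted as detected, and the probes with a known call lay in the brighter part of the signal range. Calls near background were thus not tested in this way, apart from the rule for bounds on a few made-up values. Python 3.11.15 and, for alternatives, limma 3.58.1 in R 4.3.3 were used.

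The deposited table of processed values held 265 members and served as an alternative. Its log2 values equalled the mean over all spots within 0.001 for 97% of members on Con and 94.3% on LPS, with array medians of 136 and 137 on the linear scale. The members and lists were chosen with earlier results of these data known. Named members were the 10 largest rises and 10 largest falls among members detected on both arrays, the 10 brightest, every member called higher, the 3 lowest bounds, and members within 0.05 of the threshold. Members of the longest run and others named as examples of a last number were chosen after their values were seen. Lists of snoRNP proteins, host genes, snoRNA classes and cell markers could not be applied, because the files used here give no gene name for any probe.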

Additional observations from a re-analysis of the deposited data

How the results depend on the processing

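The count of lower members, 36, was 11 with normexp background correction of the median spot signal and an added offset of 50, 23 over probes detected on both arrays, 12 with a signal of at least 100 on the brighter array and 19 at 4-fold. Normexp without an offset, an alternative chosen after seeing the data, gave 34, and the share over all probes went from 16.5% to 11.7% without and 1.89% with the offset. The 34 and the 11 all lay among the 36. The count of higher members, 0, was 3 with quantile normalization. The median difference of -0.07 became 0.0605 without scaling, and 0.05 with the 50th percentile. The median difference over all probes was -0.13 under the reported scaling, -0.22 when the E1A control spots set the scale, 0.05 after quantile normalization and -0.01 at the 50th percentile, so that values near 0 have no settled sign. The share of lower against higher calls over all probes moved from 16.5% and 0.783% to 5.2% and 4.07% with quantile normalization. Under the reported scaling the members' share of lower calls was below that over all probes. It was above that share with quantile normalization (24 members), with cyclic loess (27 members, against 6% of all probes) and with normexp and the offset. Other alternatives gave 24 to 41 lower members and 0 higher, and the median deviation from like-signal probes stayed between -0.05 and -0.03. The cause of the other changes was not tested, apart from the filters, which leave fewer members, and the threshold, which asks for more. Of the alternative values for named members, 274 moved by less than the spread between spots, 98 by more, and 0 called values changed sign. Of 143 such values for 13 named lower members, 140 were at or below -1, and the other 3, RNA33736, RNA33739 and RNA33753, came from normexp with the offset. As the 13 were chosen as the largest falls and the lowest bounds, this count follows in large part from the choice. Several of the alternatives also only shift all values by a constant. Signal near background limits the 13 bounds. No paired analysis was possible because each group has 1 array.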
